A study of Mus musculus with 3 samples.

Results

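Ccl5 and Cxcl10 are 2 of the 27998 genes counted in this single-cell study of fetal mouse brain, and both encode chemokines whose transcription can follow viral sensing and interferon. They were taken by gene symbol, with earlier results of these data known: both had been seen to be lower in microglia of one library. Their levels in that contrast are therefore given as a description, without a test. The cells examined had UMIs (unique molecular identifiers, each standing for one captured transcript) of 500 or more genes, with no more than 10% of UMIs from mitochondrial genes. Within them, microglia were defined as cells with a P2ry12 UMI and no Mrc1 UMI, border macrophages by UMIs of both Mrc1 and Pf4, and monocytes by UMIs of both Ccr2 and Ly6c2.

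CCL5 attracts T cells, natural killer cells and monocytes through receptors that include CCR1 and CCR3, and CXCL10 attracts activated T and natural killer cells through CXCR3. Both genes can be induced by IRF and NF-kB transcription factors after double-stranded RNA is sensed, and Cxcl10 and Ifit3 are also direct targets of interferon signalling. Ifit3, an antiviral protein gene, served here as the marker of an interferon-type state in single cells.

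CD11b+ cells, which are mostly myeloid, were enriched with magnetic beads from fetal brain at E18.5, shortly before birth, and sequenced from the 3′ end of transcripts in droplets. There was 1 library per group: Ncr1-cre+Saline (saline), Ncr1-cre+polyIC (poly(I:C), a synthetic double-stranded RNA used to imitate viral infection) and Gzmb-cko+polyIC (Gzmb-cko), whose labelled genotype is Ncr1-cre;gzmbf/f. Ncr1-cre, which all groups carry, drives recombination in natural killer and related innate lymphoid cells, not in microglia, and Gzmb encodes granzyme B of cytotoxic granules. The groups are described as pregnant mice; poly(I:C) dose and day, the number of pooled fetuses, and whether dam or fetus carries the genotype are all unstated in the labels. No Gzmb-cko library with saline was analysed, so an effect of genotype that exists before any injection cannot be told apart from a changed response to poly(I:C). With 1 library per group, groups could not be tested against each other, so p-values are absent. Each interval is an exact 95% interval for counting error alone.

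Values follow the order saline, poly(I:C), Gzmb-cko throughout. Gzmb itself gave 61, 127 and 2 UMIs in 4, 6 and 1 cells of the 3 libraries; the deleted exons are unstated, so these counts do not check the deletion. The libraries held 13820 to 15306 barcodes and 85442198 to 105574073 UMIs, with a lowest UMI total per barcode of 3133, 500 and 500, and 10759 to 13447 cells passed the filter. Between 63 and 71 barcodes were shared by each pair of libraries, and none of them carried Ccl5 in both or Cxcl10 in both. The microglia gate held 5452, 4519 and 5399 cells, the border macrophage gate 1125, 686 and 1896, and the monocyte gate 718, 510 and 465. Within the microglia gate the microglial gene Cx3cr1 had a UMI in 97.0% of saline cells, while Tmem119 had one in 64.9%. Summed monocyte markers stood at 451, 369 and 328 CPM (counts per 1000000 UMIs of the class), and natural killer and T cell markers at 1.11, 1.79 and 1.97 CPM, with Cd3e at 0 in every library. Hemoglobin genes took 9.75%, 5.45% and 2.53% of the gate's UMIs and neutrophil markers 4694, 2478 and 1526 CPM, both lowest in the Gzmb-cko library; their part in the results was not tested, but leaving out cells with 1% or more hemoglobin UMIs gave log2 ratios within 0.10 of those reported below.

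Ccl5 (ENSMUSG00000035042) lies on chromosome 11 at 83525778 to 83530518 on the minus strand of GRCm38 (mm10) and has 3 exons. Cxcl10 (ENSMUSG00000034855) lies on chromosome 5 at 92346638 to 92348889, minus strand, with 4 exons, and Ifit3 (ENSMUSG00000074896) on chromosome 19 at 34583531 to 34588731, plus strand, with 2 exons. The RefSeq promoter table (GRCm38.p6) matched 1 of the 2 chemokine genes. The 250 bases before the RefSeq start of Cxcl10 (chr5:92348890-92349139, minus strand) and of Ifit3 (chr19:34583279-34583528, plus strand) are shown because these genes shared cells more often than Cxcl10 did with Ccl5. Capitals mark matches on either strand to GAAANNGAA, the core of an interferon-stimulated response element, or to GGGNNTTCC, an NF-kB type motif.
Cxcl10: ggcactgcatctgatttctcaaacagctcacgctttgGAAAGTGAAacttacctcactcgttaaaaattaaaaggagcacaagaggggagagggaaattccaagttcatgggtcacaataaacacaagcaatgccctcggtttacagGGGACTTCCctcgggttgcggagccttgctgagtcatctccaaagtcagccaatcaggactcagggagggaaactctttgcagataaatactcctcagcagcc
Ifit3: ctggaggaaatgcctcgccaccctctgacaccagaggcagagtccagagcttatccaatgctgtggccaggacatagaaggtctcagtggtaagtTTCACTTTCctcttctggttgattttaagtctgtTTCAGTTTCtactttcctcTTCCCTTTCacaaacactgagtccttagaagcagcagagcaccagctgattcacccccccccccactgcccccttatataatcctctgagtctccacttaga
Cxcl10 had 1 match of each kind, the first motif 213 to 205 bases and the second 103 to 95 bases before the start. Ifit3 had matches to GAAANNGAA at 155 to 147, 121 to 113 and 102 to 94 bases before its start, each read on the opposite strand, and none to GGGNNTTCC in this window. Of 32851 promoters in the table, 7.13% held GAAANNGAA and 4.98% held GGGNNTTCC. These matches describe the sequence and were not tied to any value below. No other pattern was searched, so other forms of either site, such as longer NF-kB motifs, were not counted.

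Few microglia carried either chemokine. Ccl5 was detected in 293 of 5452, 126 of 4519 and 100 of 5399 microglia, which is 5.37%, 2.79% and 1.85%. With every cell thinned to 3000 UMIs, so that depth was equal, the Ccl5 shares were 3.83% (3.34 to 4.38), 2.45% (1.98 to 3.0) and 1.37% (1.07 to 1.74). The share was highest with saline and lowest in the Gzmb-cko library, and the 3 intervals did not overlap. Thinning left out 0, 768 and 447 shallower microglia.

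Cxcl10 was detected in 121, 90 and 67 microglia, which is 2.22%, 1.99% and 1.24%. At equal depth the Cxcl10 shares were 1.69% (1.36 to 2.07), 1.65% (1.27 to 2.11) and 0.828% (0.595 to 1.12). The saline and poly(I:C) intervals overlapped, and the Gzmb-cko interval lay below both. The Ifit3 shares at equal depth, 2.95%, 2.88% and 2.36%, had overlapping intervals.

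Neurons, choroid plexus cells and erythroid cells, pooled as non-immune cells, should make little of either transcript. They gave the level that free RNA could produce. Among such cells, with median depths of 5014.5, 4761.5 and 4125 UMIs against 4809, 5176 and 5780 in microglia, Ccl5 had a UMI in 0.510%, 0.50% and 0.687%, and Cxcl10 in 1.53%, 0.333% and 0.344%. The microglial shares were higher in each library, but few non-immune cells were counted. The background interval includes the microglial share for Ccl5 in Gzmb-cko (0.0833 to 2.46%) and for Cxcl10 in saline (0.317 to 4.41%) and Gzmb-cko (0.0087 to 1.90%), so these shares could not be told apart at this depth. The levels could: in non-immune cells Ccl5 stood between 1.45 and 2.24 CPM over the 3 libraries and Cxcl10 at 2.24, 0.498 and 0.726 CPM, with no upper limit above 6.55, while the microglial levels given below start at 19.2 CPM.

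**Figure D1:**
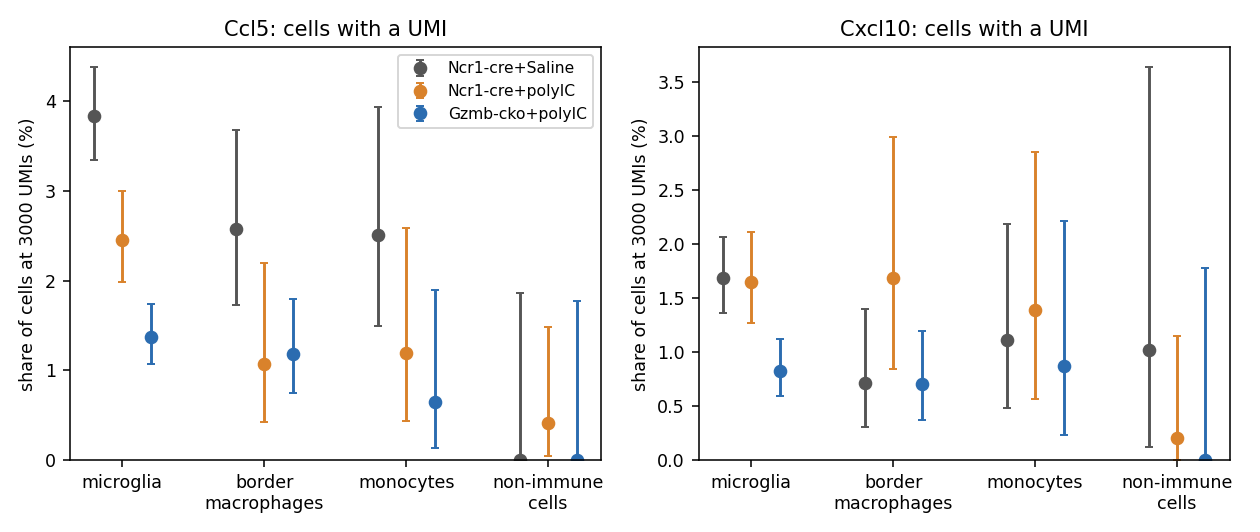
Share of cells with at least 1 UMI of Ccl5 (left) or Cxcl10 (right) after thinning to 3000 UMIs, by cell class and library; points are shares in percent and bars exact 95% binomial intervals for counting error. In microglia Ccl5 steps down from 3.83% to 2.45% and 1.37%, and Cxcl10 stands at 1.69%, 1.65% and 0.828%, while intervals in the smaller classes are wide.

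In the microglia that did carry them, both transcripts were concentrated in very few cells. The mean number of Ccl5 UMIs per positive cell was 13.4, 17.1 and 21.7, but the medians were 2, 3 and 3, and the highest single cells held 461, 253 and 406. Cells with 20 or more Ccl5 UMIs numbered 35, 28 and 19 and held 77.6%, 83.6% and 88.2% of all Ccl5 UMIs of the gate. In the Gzmb-cko library 4 cells held 50% of them, against 9 in each of the other libraries.

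Cxcl10 had the same skew. Positive cells averaged 10.2, 15.5 and 10.3 Cxcl10 UMIs, with a median of 2 in each library and maxima of 114, 228 and 103. Cells with 20 or more Cxcl10 UMIs numbered 22, 18 and 9, which held 77.2%, 82.8% and 72.6% of the gate's Cxcl10 UMIs. A class level of either gene is thus set by a small number of cells, and counting intervals understate how far it could vary between cells.

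**Figure D2:**
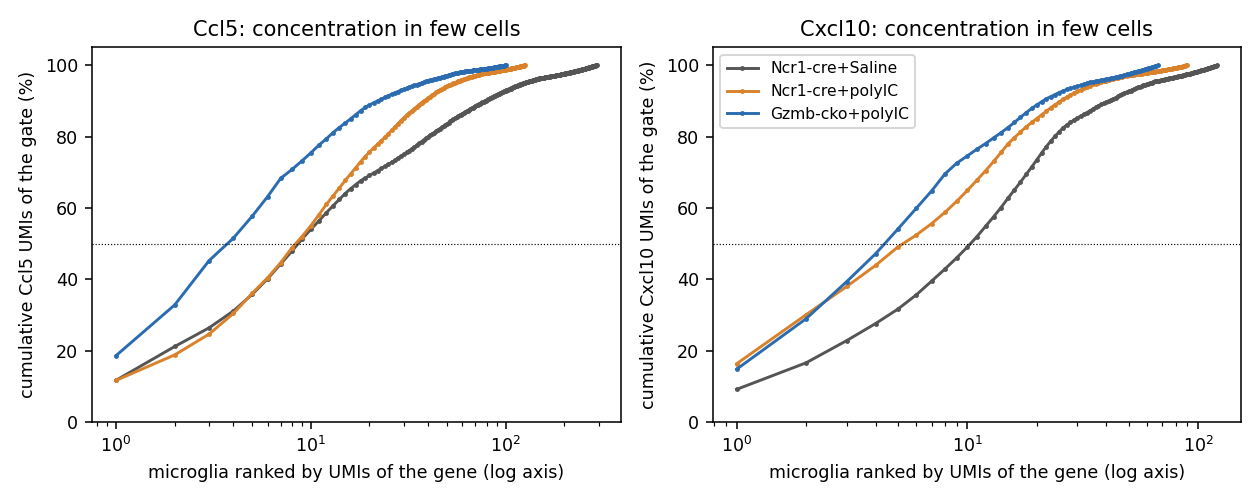
Cumulative percent of the gate's Ccl5 (left) or Cxcl10 (right) UMIs against the number of microglia, ranked from the cell with most UMIs (log axis), 1 line per library; the dotted line marks 50%. For Ccl5 the line of the Gzmb-cko library crosses 50% at 4 cells and the others at 9; for Cxcl10 the crossings are at 11, 6 and 5 cells.

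Summed over the gate, Ccl5 stood at 120 CPM (116 to 124), 80.2 (76.8 to 83.6) and 60.3 (57.8 to 62.9). The share of positive cells and the content of each moved in opposite directions. From poly(I:C) to Gzmb-cko, Ccl5 was 1.33-fold lower (log2 ratio -0.41, -0.50 to -0.33), made up of -0.59 from the share of positive cells, 0.34 from UMIs per positive cell and -0.17 from the larger total of UMIs per cell. From saline to poly(I:C) the log2 ratio was -0.58 (-0.66 to -0.51), with -0.95 from the share and 0.36 from UMIs per positive cell. Fewer microglia were thus Ccl5-positive in both comparisons. The higher mean content rested on few cells in Gzmb-cko, where the 10 cells with most UMIs held 75.5% of them. Without the 10 cells with most in each library the means were 6.36, 8.35 and 5.92, and the log2 ratio of the levels was -1.29. Those 10 cells came from 293, 126 and 100 positive cells, so the cut removed the largest part of them in Gzmb-cko. The trimmed values therefore do not compare the libraries on equal terms.

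Cxcl10 stood at 38.0 CPM (35.9 to 40.1), 51.7 (49.1 to 54.5) and 19.2 (17.8 to 20.7). The poly(I:C) library was the highest and the Gzmb-cko library the lowest. From poly(I:C) to Gzmb-cko, Cxcl10 was 2.69-fold lower (log2 ratio -1.43, -1.56 to -1.30), with -0.68 from the share of positive cells and -0.58 from UMIs per positive cell. From saline to poly(I:C) its log2 ratio was 0.45 (0.34 to 0.56), of which the share gave -0.16 and UMIs per positive cell 0.60. Without the 10 cells with most UMIs in each library the means per positive cell were 5.68, 6.10 and 3.09. Here too the cut was unequal, as the 10 cells came from 121, 90 and 67 positive cells. Both comparisons use the poly(I:C) library, so its own deviation enters each of them with opposite sign.

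**Figure D3:**
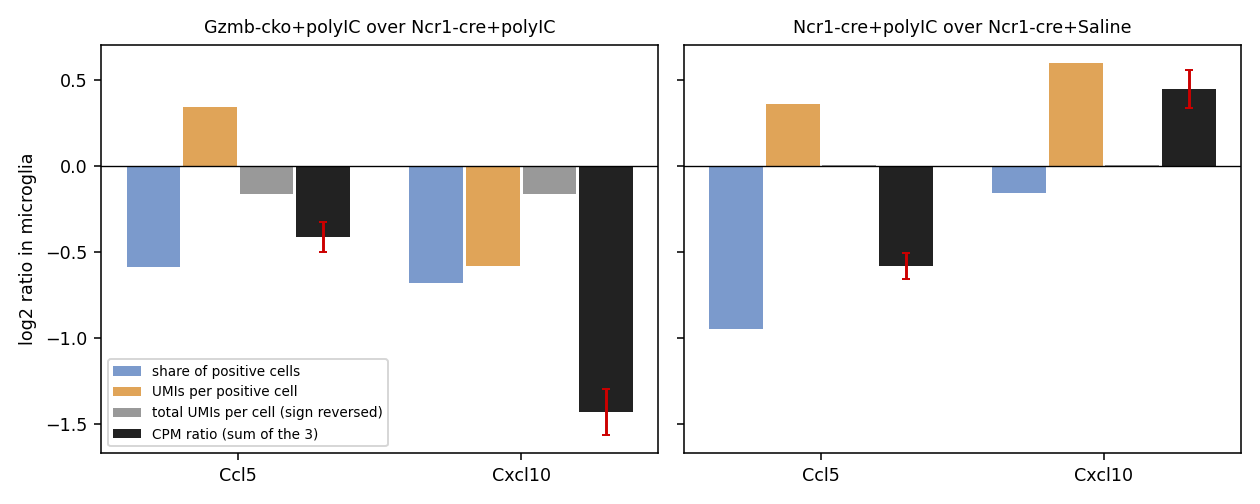
Log2 CPM ratio of Ccl5 and Cxcl10 in microglia (black, red bars are exact 95% counting intervals) and its parts: share of positive cells, UMIs per positive cell, and total UMIs per cell with its sign reversed. In the left panel Ccl5 has parts of opposite sign (-0.59 and 0.34) and Cxcl10 parts of the same sign (-0.68 and -0.58); in the right panel the Cxcl10 ratio of 0.45 comes with 0.60 from UMIs per positive cell.

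Among 7847 genes with a mean of at least 10 CPM in microglia, 2.19% were 1.5-fold or more lower and 0.268% 1.5-fold or more higher in Gzmb-cko than in poly(I:C). Cxcl10 was past that fold and Ccl5 was not; since this contrast chose the pair, nothing is read from that count. From saline to poly(I:C) 4.17% of genes were past 1.5-fold higher and 1.33% lower, and neither chemokine was among them, but Ccl5 lay just short of 1.5-fold lower and was past it in 11 of 18 alternative settings, 1.70-fold under TMM. Scaling mattered at this level: TMM factors moved the median log2 ratio of all genes from -0.04 to 0.07 and from 0.18 to -0.01, and the share of higher genes among those past 1.5-fold from 10.9% to 26.8% and from 75.9% to 26.0%. Under TMM the chemokine ratios were -0.31 for Ccl5 and -1.32 for Cxcl10 in the first comparison, and -0.77 and 0.26 in the second.

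The Cxcl10 difference was seen in cells that also carried Ifit3, while levels in the other cells were near background. Cxcl10 in Ifit3-positive microglia stood at 702, 1090 and 319 CPM over 233, 162 and 189 cells. Of these cells 179, 133 and 143 were in no other gate. Ccr2, a monocyte marker, had a UMI in 30.5%, 25.9% and 30.7% of them, against 6.95%, 3.98% and 3.22% of the gate. Over all microglia, leaving out cells in more than 1 gate gave a Cxcl10 log2 ratio of Gzmb-cko over poly(I:C) of -1.44. In Ifit3-negative microglia Cxcl10 stood at 5.15 (4.38 to 6.01), 5.90 (5.0 to 6.92) and 6.23 (5.42 to 7.12) CPM, which overlap. These levels lie below the highest upper limit given above for non-immune cells, so a difference between them could be hidden. The Gzmb-cko to poly(I:C) ratio of Cxcl10 was 0.292 (0.263 to 0.325) in Ifit3-positive cells and 1.05 (0.853 to 1.31) in Ifit3-negative cells. In Gzmb-cko 1 cell held 33.5% of the Cxcl10 UMIs of Ifit3-negative cells. Without the 1 cell with most in each library that ratio was 0.969 (0.751 to 1.25).

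Ccl5 did not share this split. In Ifit3-negative microglia Ccl5 stood at 74.8, 57.6 and 27.5 CPM, a Gzmb-cko to poly(I:C) ratio of 0.478 (0.440 to 0.519). In Ifit3-positive microglia it stood at 1038, 591 and 814 CPM, a ratio of 1.38 (1.25 to 1.51), with 53, 28 and 19 Ccl5-positive cells behind these values. In Gzmb-cko 1 cell held 33.3% of these UMIs, and without the 1 cell with most in each library the levels were 738, 481 and 543 CPM, a ratio of 1.13 (1.01 to 1.26). The share of Ccl5-positive cells among Ifit3-positive microglia was nevertheless lowest in Gzmb-cko, at 22.7%, 17.3% and 10.1%, the last pair with overlapping intervals.

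Cell cycle genes and fetal sex chromosomes also moved with the levels, and their part in the results was not tested. At least 2 of 28 cycle genes had a UMI in 64.4%, 55.9% and 64.3% of microglia. Among the remaining microglia Cxcl10 stood at 64.7, 29.1 and 38.2 CPM from 42, 30 and 19 positive cells. By level poly(I:C) was then the lowest library, and both log2 ratios changed sign (0.39 for Gzmb-cko over poly(I:C), -1.15 for poly(I:C) over saline). The shares of positive cells were 2.16%, 1.51% and 0.984%, still lowest in Gzmb-cko, with overlapping intervals in the last pair. In each library 10 cells held 75.9%, 87.4% and 97.1% of these Cxcl10 UMIs. Without those 10 cells 143, 34 and 11 UMIs remained, in 32, 20 and 9 positive cells. The cut removed the largest part of positive cells in Gzmb-cko, so these unscaled counts are not compared between libraries. Ccl5 in all microglia with fewer than 2 cycle genes stood at 124, 65.0 and 65.7 CPM, and its ratio of Gzmb-cko to poly(I:C) was 0.014 on the log2 scale. Without the 1 cell with most UMIs in each library these Ccl5 levels were 104, 37.8 and 34.8 CPM. In the whole gate the 10 cells with most UMIs also mattered. Without them in each library the Cxcl10 log2 ratio of poly(I:C) over saline was -0.088, again with an unequal cut. The mean of per-cell CPM gave -0.13.

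Microglia with UMIs of Xist and of no Y-linked gene, as female cells would have, made up 41.3%, 47.8% and 32.0% of the gate, and those with Y-linked UMIs alone 26.2%, 19.8% and 37.2%. In Xist-only microglia Ccl5 stood at 179, 120 and 88.9 CPM, and in Y-only microglia at 54.1, 19.8 and 59.5 CPM. The Xist-only cells kept the order of the whole gate and the Y-only cells did not. In Y-only cells of Gzmb-cko 1 cell held 47.1% of the Ccl5 UMIs, and without the 1 cell with most in each library the Y-only levels were 41.5, 13 and 31.5 CPM. Of Ccl5-positive microglia 44.7%, 64.3% and 43.0% were Xist-only, above the gate's own share in poly(I:C) and Gzmb-cko. In saline the interval (38.9 to 50.6%) included the gate's share. Their Y-only shares were below the gate's in saline (23.2%) and poly(I:C) (11.9%). In Gzmb-cko the Y-only share of Ccl5-positive cells was also above the gate's own, with an interval (30.3 to 50.3%) that included the gate's 37.2%. Ccl5-positive microglia were deeper than the gate in each library, with medians of 5742, 6173 and 6321.5 UMIs against 4809, 5176 and 5780. Depth thus moved with these shares, and its part was not tested. Cxcl10 was lowest in Gzmb-cko in both sets, at 33.2, 64.8 and 23.8 CPM in Xist-only and 27.1, 45.8 and 13.1 CPM in Y-only microglia.

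**Figure D4:**
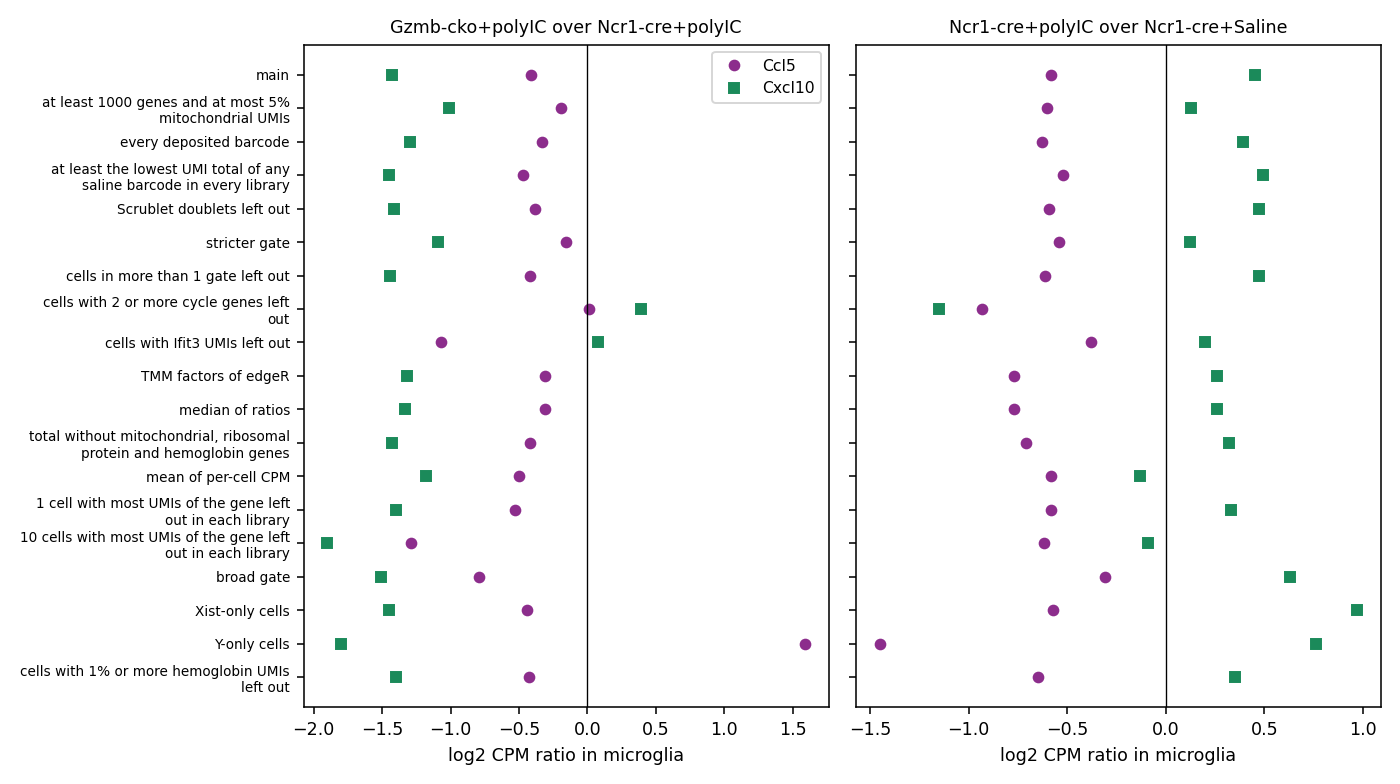
Log2 CPM ratio of Ccl5 (circles) and Cxcl10 (squares) in microglia under the reported setting (main, top) and each other way of choosing cells or scaling. In the left panel Cxcl10 is above 0 only when cycling or Ifit3-positive cells are left out, and Ccl5 only when cycling cells are left out (0.014) or Y-only cells are used (1.59); in the right panel Ccl5 is below 0 in each setting shown.

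Each chemokine was detected in a larger share of microglia with the other, and Ifit3 in a larger share of microglia with either, than in microglia without; most positive cells still carried 1 chemokine alone. At equal depth Ccl5 was detected in 22.8% (14.7 to 32.8), 24.2% (14.2 to 36.7) and 14.6% (5.57 to 29.2) of Cxcl10-positive microglia, against 3.51%, 2.09% and 1.26% of Cxcl10-negative ones. The positive cells numbered 92, 62 and 41, and 21, 15 and 6 of them carried Ccl5. Intervals of positive and negative cells did not overlap in any library.

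Ifit3 was found more often in Cxcl10-positive than in Ccl5-positive microglia, with overlapping intervals in Gzmb-cko. It was detected in 41.3% (31.1 to 52.1), 51.6% (38.6 to 64.5) and 39.0% (24.2 to 55.5) of Cxcl10-positive microglia, against 2.29%, 2.06% and 2.06% of Cxcl10-negative ones. Among Ccl5-positive microglia Ifit3 was detected in 15.3% (10.7 to 20.9), 20.7% (12.9 to 30.4) and 19.1% (10.6 to 30.5), against 2.46%, 2.43% and 2.13% of Ccl5-negative ones. All 3 genes were detected together in 16, 11 and 6 microglia. The saline and Gzmb-cko libraries showed these associations as well as the poly(I:C) library, and the intervals of the 3 libraries overlapped for each pair.

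**Figure D5:**
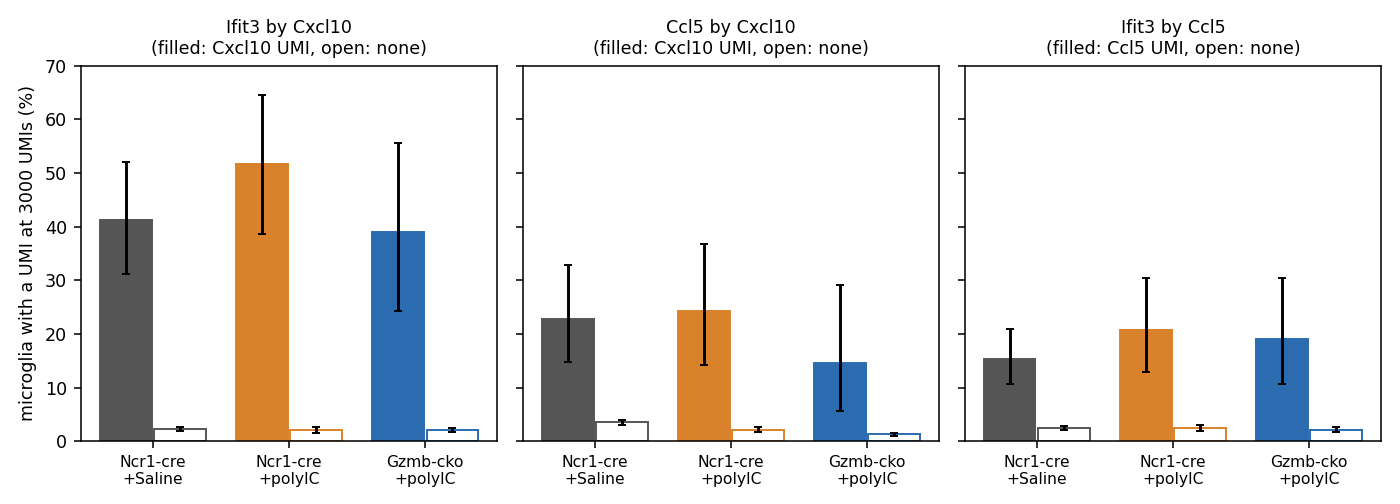
Share of microglia, thinned to 3000 UMIs, with a UMI of the first gene named above each panel, among cells with (filled) and without (open) a UMI of the second, by library; bars are exact 95% binomial intervals. Filled bars for Ifit3 reach 41.3%, 51.6% and 39.0% by Cxcl10 and 15.3%, 20.7% and 19.1% by Ccl5, and each open bar is below 4%.

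The association of Cxcl10 with Ifit3 grew with the number of Cxcl10 UMIs. Ifit3 was detected in 14.3%, 12.2% and 12.1% of microglia with 1 Cxcl10 UMI and in 90.9%, 94.4% and 77.8% of those with 20 or more. For Ccl5 the matching shares were 8.33%, 10.2% and 7.50% at 1 UMI and 37.1%, 32.1% and 42.1% at 20 or more. These cells were not thinned. Cells with 20 or more Ccl5 UMIs were deeper in each library, with medians of 6395, 6841 and 7524 UMIs against 5908, 6154 and 6532 at 1 UMI, so depth moved with the rise and its part was not tested. For Cxcl10, median depth was 7012, 6095 and 6531 UMIs in cells with 1 Cxcl10 UMI and 4140.5, 6741.5 and 5773 in those with 20 or more, so the saline and Gzmb-cko shares were higher in the shallower set.

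Without thinning, microglia fell into Ccl5-only, Cxcl10-only and double-positive cells. Double-positive cells numbered 28, 19 and 9, and Ifit3 was detected in 82.1%, 84.2% and 88.9% of them. Ccl5-only cells numbered 265, 107 and 91, with Ifit3 in 11.3%, 11.2% and 12.1%, and Cxcl10-only cells 93, 71 and 58, with Ifit3 in 31.2%, 35.2% and 22.4%. Most Ccl5 thus came from cells without detected Cxcl10: the Ccl5-only cells held 92.7%, 82.6% and 84.7% of Ccl5 UMIs. The double-positive cells held 50.3%, 41.7% and 32.3% of Cxcl10 UMIs, a larger part than their part of Ccl5 UMIs, 7.33%, 17.4% and 15.3%.

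The wider company of each gene was described by the genes whose share among positive microglia exceeded that among negative ones by at least 10 percentage points in every library. Of 12054 genes detected widely enough, 0.34% met this for Ccl5 (41 genes) and 0.913% for Cxcl10 (110 genes), and 29 met it for both, 70.7% of the Ccl5 set and 26.4% of the Cxcl10 set. Because Ccl5-positive and Cxcl10-positive cells overlap, the sets are not independent.

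Ranked by the lowest of the 3 library ratios, the genes most like Cxcl10 were Iigp1, Cd69, Ifit3b, Cmpk2, Ifit1, Oasl1, Ifit3, Mx1, Ifi205 and Pydc4. Iigp1, an interferon-inducible GTPase gene, was detected in 17.4%, 14.5% and 17.1% of Cxcl10-positive microglia and in 0.149%, 0.0813% and 0.143% of negative ones. Cd69, an early activation antigen, was detected in 14.1%, 16.1% and 12.2% against 0.280%, 0.271% and 0.224%. Ifit1, an antiviral RNA-binding protein gene, was detected in 31.5%, 40.3% and 31.7% against 1.34%, 1.06% and 1.04%.

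The genes most like Ccl5 were Cxcl9, H2-Q7, Ifit3, Phf11d, Cd72, Irf7, Il2rg, Phf11b, Cxcl16 and Bcl2a1a. Cxcl9, a CXCR3 ligand gene that neighbours Cxcl10 on chromosome 5, was detected in 16.3%, 13% and 10.3% of Ccl5-positive microglia against 0.496%, 0.273% and 0.123% of negative ones. H2-Q7, a nonclassical MHC class I gene with close paralogs that can split its reads, was detected in 20.6%, 27.2% and 33.8% against 1.35%, 0.956% and 1.29%. Irf7, the interferon-inducible regulator of type I interferon genes, was detected in 30.6%, 37.0% and 20.6% against 4.37%, 3.55% and 3.64%. Ifit3 was the 1 gene that both sets of 10 held.

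By list, 28 of 38 interferon-stimulated genes met the same rule for Cxcl10 and 9 of 38 for Ccl5, Isg15, Ifitm3 and Bst2 among the latter. Over all tested genes the shares were 0.913% for Cxcl10 and 0.34% for Ccl5. Of 17 genes of nucleic acid sensing, Ddx58, Ifih1, Irf7 and Tlr3 met it for Cxcl10 and Irf7 for Ccl5. Of 21 tested NF-kB and cytokine genes 5 met it for Cxcl10 and 0 for Ccl5. None of 22 immediate early and heat shock genes, and none of 28 cycle genes, met it for either chemokine. At the shares over all genes, lists this short would mostly hold none, so nothing is read from the lists without a gene.

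Between libraries, 3 of 26 interferon-stimulated genes at 10 CPM in microglia were 1.5-fold or more lower and 0 higher in Gzmb-cko than in poly(I:C), against 2.19% and 0.268% of all genes, with a median log2 ratio of -0.27 against -0.04 for all genes. Ifit2 had the largest difference, at 10.4, 15.9 and 7.74 CPM. From saline to poly(I:C) 3 were higher and 0 lower, with a median of 0.11 against 0.18 for all genes, which became -0.08 under TMM. Isg15, a ubiquitin-like antiviral protein gene, stood at 47.9, 47.4 and 36.3 CPM. The sensor and signalling lists had 0 of 13 genes each, and the NF-kB and cytokine list 0 of 15, past 1.5-fold in either direction in Gzmb-cko against poly(I:C), with medians of -0.15, -0.14 and -0.23. From saline to poly(I:C) 1 of 13 sensor, 2 of 13 signalling and 4 of 15 NF-kB and cytokine genes were higher and 1 of the last list lower, against 4.17% and 1.33% of all genes. The medians of that comparison were 0.18, 0.40 and 0.28, and under TMM -0.0014, 0.21 and 0.096.

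Other chemokines of microglia did not share one pattern. Ccl2, a CCR2 ligand gene, stood at 50.2, 122 and 59.1 CPM, highest in poly(I:C) as Cxcl10 was. Ccl3, a CCR1 ligand gene, stood at 316, 527 and 536 CPM and did not drop in the Gzmb-cko library. Cxcl9 stood at 13.3, 11 and 8.19 CPM, with saline highest as for Ccl5. Of 8 other chemokine genes at 10 CPM, 3 were past 1.5-fold higher from saline to poly(I:C), against 4.17% of all genes. Ccl2 alone was past 1.5-fold lower in Gzmb-cko than in poly(I:C), against 2.19% of all genes. Immediate early and heat shock genes, which also respond to cell handling, were past 1.5-fold higher from saline to poly(I:C) in 10 of 19 cases. Over all genes the share was 4.17%. Their median log2 ratio was 0.60, and 0.41 under TMM, against 0.18 and -0.01 for all genes. In Gzmb-cko 1 of the 19 was past 1.5-fold lower than in poly(I:C), against 2.19% of all genes. Fos stood at 491, 1073 and 754 CPM. The part of these genes in the chemokine levels was not tested.

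Ccr1, which encodes a receptor for CCL5, was highest in monocytes among the 3 gates, at 154, 252 and 189 CPM, against 30.7, 40.3 and 23.5 CPM in microglia. Ccr3 gave 12, 9 and 7 UMIs in microglia. Cxcr3, the CXCL10 receptor, stood at 1.23, 1.30 and 2.11 CPM in microglia and 4.0, 7.25 and 7.38 CPM in border macrophages. Ccr1 was not detected in a larger share of Ccl5-positive than of Ccl5-negative microglia in any library, at 5.74%, 7.61% and 2.94% against 6.89%, 8.42% and 5.47% at equal depth.

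Border macrophages carried less Ccl5 than microglia in each library, at 27.0 (23.8 to 30.6), 13.2 (10.4 to 16.4) and 9.86 (8.53 to 11.3) CPM. Their equal-depth Ccl5 shares were 2.58% (1.73 to 3.68), 1.07% (0.431 to 2.19) and 1.19% (0.746 to 1.79). Saline was the highest library again by level, and the 3 share intervals overlapped. Cxcl10 in border macrophages stood at 5.79, 26.0 and 12.5 CPM from 21, 17 and 32 positive cells, with equal-depth shares of 0.711%, 1.68% and 0.702% whose intervals overlapped. The saline share lay below the 1.02% of non-immune cells at equal depth and is read as background. The Gzmb-cko shares of both chemokines lay within the background interval of that library (0 to 1.77%), as did those of microglia. By level, at 9.86 and 12.5 CPM, both lay above the highest upper limit of non-immune cells, so only the shares could not be told apart. Without the 1 cell with most Cxcl10 UMIs in each library the levels were 3.26, 15.4 and 8.82 CPM.

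Monocytes, in contrast, were rich in Ifit3 and held little of either chemokine. Ifit3 had equal-depth shares of 18.52%, 19.9% and 24.6% and stood at 74.6, 120 and 130 CPM. Ccl5 stood at 38.0 (32.9 to 43.6), 15.2 (11.6 to 19.6) and 2.90 (1.45 to 5.18) CPM, from 29, 7 and 5 positive cells. The Gzmb-cko share at equal depth, 0.654%, lies within the background interval of that library, in which 0 of 206 non-immune cells were positive (0 to 1.77%). The poly(I:C) Ccl5 shares of monocytes, 1.195%, and of border macrophages also lie within the background interval of their library (0.0502 to 1.49%). By level both classes lay above the highest upper limit of non-immune cells in that library. Cxcl10 stood at 14.6, 7.48 and 16.9 CPM from 13, 13 and 9 positive cells, with 1 cell holding 48.7%, 27.6% and 53.1% of its UMIs. Its equal-depth shares, 1.11%, 1.39% and 0.871%, lay within or overlapped the background intervals.

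For Ccl5 the order of classes was microglia, monocytes and border macrophages in saline, where the monocyte and border intervals did not overlap, and the same in poly(I:C), where they did. The place of monocytes rested on 1 cell in each, with 41.4% and 72.9% of their Ccl5 UMIs: without the 1 cell with most in each class, monocytes stood at 22.2 and 4.13 CPM and border macrophages at 18.4 and 7.25 CPM, which turns the order in poly(I:C). At equal depth the saline shares were 2.51% in monocytes and 2.58% in border macrophages. In Gzmb-cko monocytes came last. For Cxcl10 microglia were above both other classes in saline and in poly(I:C), while in Gzmb-cko the intervals of microglia (17.8 to 20.7) and monocytes (13 to 21.5) overlapped. Co-expression outside microglia rested on few cells: 1, 1 and 3 border macrophages and 1, 0 and 2 monocytes were positive for both chemokines. At equal depth Ifit3 was detected in 1 of 8, 1 of 11 and 7 of 13 Cxcl10-positive border macrophages, against 4.03%, 4.98% and 5.87% of negative ones. Those intervals overlapped in saline and poly(I:C) but not in Gzmb-cko (25.1 to 80.8% against 4.84 to 7.04%). Ccl5-positive border macrophages had Ifit3 in 0 of 29, 1 of 7 and 2 of 22, against 4.20%, 4.95% and 6.17% of negative ones. In monocytes Ifit3 was detected in 1 of 18, 0 of 6 and 1 of 3 Ccl5-positive cells, against 18.9%, 20.2% and 24.6%. Of Cxcl10-positive monocytes 4 of 8, 3 of 7 and 2 of 4 carried it, against 18.2%, 19.6% and 24.4%. For Ccl5 in both classes and Cxcl10 in monocytes, intervals of positive and negative cells overlapped in every library.

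The 3 gates do not cover all Ccl5 and Cxcl10 of the libraries. Cells in the microglia gate alone held 48.2%, 39.1% and 59.2% of the Ccl5 UMIs and 62.8%, 62.5% and 47.0% of the Cxcl10 UMIs of kept cells. Cells with P2ry12 and Mrc1 but no Pf4, which fall in no class unless they are monocytes, made up 25.9%, 21.5% and 25.5% of kept cells and held 12.5%, 3.83% and 22.3% of Ccl5 UMIs. Cells with no P2ry12 UMI but at least 3 other microglial markers made up 6.59%, 4.50% and 4.28% of cells and held 16.9%, 32.7% and 12.1% of Ccl5 UMIs. In a broader gate that added these cells, chosen after seeing the data, Ccl5 stood at 111, 89.4 and 51.7 CPM and Cxcl10 at 29.6, 45.7 and 16.1 CPM, in the same order as before. Over all kept cells Ccl5 stood at 102, 83.7 and 37.5 CPM, 2.23-fold lower in Gzmb-cko than in poly(I:C) against 1.33-fold in the microglia gate, and Cxcl10 at 23.8, 33.5 and 14.9 CPM, 2.26-fold lower. The few lymphoid cells, 5, 11 and 1 in number and defined by Nkg7 with another natural killer or T cell gene, held 54, 451 and 2 Ccl5 UMIs and 0 Cxcl10 UMIs. With 0 of 11 poly(I:C) cells, the exact upper limit for the share with a Cxcl10 UMI was 28.5%.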

How the data were processed

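The authors deposited raw UMI counts per gene and barcode, without normalisation, for 3 libraries. Per the file headers the writing software was Cell Ranger 5.0.0. Version 3.0.1 of it, the aligner STAR and build mm10 are what the submitters' processing notes list. How cells were called is unstated. Ccl5 and Cxcl10, the gene lists, markers and gates were chosen with earlier results of these data known. UMIs were summed per class and library as CPM, with exact 95% Poisson, conditional binomial or Clopper-Pearson intervals (scipy 1.17.1). For shares, cells were thinned at random to 3000 UMIs and shallower cells left out. Gates could overlap: 196, 96 and 98 cells were both microglia and monocytes. Doublets were kept; Scrublet (scanpy 1.11.5) called 387, 281 and 626, and leaving them out was an alternative. Cells are not replicates, so no test was run. TMM factors came from edgeR 4.0.16. Each ratio was split on the log2 scale, computed from the deposited counts. The gene scan was also run on simulated independent Poisson counts. These lack the skew and shared state of real cells, so nothing is read from that run.

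Named genes were Ccl5, Cxcl10, Ifit3, the detected receptors (1 is not reported here), at most 4 genes per list and comparison by size of log2 ratio, and the first 10 genes most like each chemokine; Isg15, Ifitm3, Bst2, Cx3cr1 and Tmem119 were named after their values were seen. Alternatives covered the cell filter, gates, doublets, scaling, weighting, thinning depth, the UMI threshold and cells left out. Mx2 and Cxcl11 were not analysed here. Positions came from the GRCm38 annotation and promoters from RefSeq, and motifs were searched on both strands.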

Additional observations from a re-analysis of the deposited data

Results flagged for a closer look

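Cxcl10 went in opposite directions in monocytes and microglia in both comparisons, and neither difference between the classes was tested. From poly(I:C) to Gzmb-cko the log2 ratio was 1.17 in monocytes (0.52 to 1.86) and -1.43 in microglia. From saline to poly(I:C) it was -0.96 in monocytes (-1.63 to -0.33) and 0.45 in microglia. Monocyte Cxcl10 rested on 76, 29 and 64 UMIs, and without the 1 cell with most of them in each library the levels were 7.48, 5.42 and 7.90 CPM.

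Ccl5 went in opposite directions in microglia with Y-linked UMIs alone and in those with Xist alone. From poly(I:C) to Gzmb-cko the log2 ratio was 1.59 in Y-only cells, from 15 and 40 positive cells, and -0.44 in Xist-only cells, from 81 and 43. This split was made after seeing the data, and the difference was not tested. The Y-only levels were 54.1, 19.8 and 59.5 CPM, and without the 1 cell with most Ccl5 UMIs in each library 41.5, 13 and 31.5 CPM.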

How the results depend on the processing

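No paired analysis was possible because each group had 1 library. Broader gate, hemoglobin, Xist and Y sets, a second thinning draw, and leaving out top cells within subsets or other classes were added after seeing the data. Log2 ratios of Gzmb-cko over poly(I:C) moved by more than counting error as follows. For Ccl5 they were -0.19 with 1000 genes and 5% mitochondrial UMIs, -0.16 in the stricter gate, 0.014 without cycling cells, -1.07 without Ifit3-positive cells, -0.31 under TMM and under median of ratios, -0.53 and -1.29 without the top 1 and 10 cells, -0.79 in the broad gate and 1.59 in Y-only cells. For Cxcl10 they were -1.01, -1.09, 0.39 and 0.077 in the first 4 of these, -1.18 as a mean of per-cell CPM, -1.90 without the top 10 cells and -1.80 in Y-only cells. For poly(I:C) over saline, Ccl5 was -0.93 without cycling cells, -0.38 without Ifit3-positive cells, -0.77 under TMM and median of ratios, -0.71 without mitochondrial, ribosomal protein and hemoglobin genes, -0.31 in the broad gate and -1.45 in Y-only cells. Cxcl10 was 0.13 and 0.12 with the stricter filter and gate, -1.15 without cycling cells, 0.20 without Ifit3-positive cells, 0.26 under TMM and median of ratios, 0.32 without those gene classes, -0.13 as a per-cell mean, 0.33 and -0.088 without the top 1 and 10 cells, 0.63 in the broad gate, and 0.97 and 0.76 in Xist-only and Y-only cells. The causes were not tested. The top 10 cells are a larger part of the positive cells in libraries with fewer of them. The other 35 of 72 ratios stayed within counting error.

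Ccl5 shares were 3.30% (saline) and 1.96% (poly(I:C)) at 2000 UMIs, 5.37% (saline) and 1.85% (Gzmb-cko) without thinning, and 2.05%, 1.57% and 0.848% at 2 or more UMIs. Cxcl10 shares were 2.22% (saline) and 1.24% (Gzmb-cko) without thinning, and 0.899%, 1.09% and 0.464% at 2 or more UMIs. Of 63 alternative shares among positive cells 60 stayed within their intervals; Ifit3 in saline at 2 or more UMIs was 59.2% among Cxcl10-positive and 10.7% among Ccl5-positive cells, and 9.26% among Ccl5-positive Gzmb-cko cells of the stricter gate. Genes past 1.5-fold numbered 193 and 431 at 10 CPM, 1192 and 1317 at 1 CPM, and 3638 and 3772 with a UMI in every library.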

Other observations

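Interferon transcripts themselves were nearly undetected. Ifnb1, the interferon beta gene, gave 6, 27 and 44 UMIs in 5, 3 and 6 kept cells, and Ifng, the type II interferon gene, gave 2, 2 and 0 UMIs. The lymphoid cells that held 451 Ccl5 UMIs in the poly(I:C) library numbered 11, a level of 4867 CPM, against 54 UMIs in 5 cells with saline and 2 UMIs in 1 Gzmb-cko cell. Cells without P2ry12 but with at least 3 other microglial markers had Ccl5 at 258, 770 and 126 CPM, highest in poly(I:C), where 20 positive cells gave that level, while the share of Ccl5-positive cells among them was 7.38%, 4.13% and 2.43%, highest in saline as in the microglia gate. Of Ccl5-positive microglia 2.73%, 3.17% and 1.0% were called doublets, and of Cxcl10-positive microglia 6.61%, 4.44% and 2.99%.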
